A study of Homo sapiens with 8 samples.

Results

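Knockouts of SMYD1, SMYD2, SMYD3, SMYD4, SETD3, SETD6 and SETD7 were followed through a pooled CRISPR-Cas9 screen in T1-160 cells, Taxol-resistant cells raised from SUM159PT, a triple-negative breast cancer line. The genes were taken by symbol from a list of 8 methyltransferases of the SMYD and SETD families. SMYD5, the other listed gene, was not analysed here. The 7 genes stand among 779 genes targeted by the chromatin-focused sgRNA library EPIKOL. Each had 10 sgRNAs, 70 of the 7855 in the tables. All cells carried Cas9 and the library and had been selected with 5 µg/ml puromycin for 4 days, together with 20 µM verapamil, which blocks drug efflux. Cells collected right after this selection form the AP group, represented by replicates 1 and 3. The remaining cells were split and grown for 16 population doublings, either in DMSO, the vehicle (3 libraries), or in 160 nM Taxol (3 libraries). T1-160 is a single line raised by stepwise drug exposure, and neither the expression of these genes in it nor the cutting by each sgRNA was measured in these libraries. The labels do not say whether replicates were separate infections or cultures, so the limma p-values measure only the spread between these libraries, which may be technical. The rank-based p-values given beside them set sgRNAs against sgRNAs, and the spread between libraries enters those only through the ranking.

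The SET domain is the catalytic fold of most protein lysine methyltransferases, which move a methyl group from S-adenosylmethionine to a lysine side chain. In SMYD proteins a MYND zinc finger interrupts the SET domain. SMYD1 is largely restricted to heart and skeletal muscle, where it is needed for sarcomere assembly, while SMYD2 and SMYD3 methylate histones as well as cytoplasmic and nuclear proteins. SETD3, SETD6 and SETD7 act mostly on proteins other than histones: SETD3 methylates a histidine of actin, SETD6 methylates the RELA subunit of NF-κB, and SETD7 adds a single methyl group to lysines of histone H3, DNMT1 and others.

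The readout was the abundance of each sgRNA in genomic DNA. A sgRNA whose knockout slows growth falls in abundance, and one whose knockout favours growth gains. Depth ranged from 2045984 reads in Taxol 2 to 11771418 in Taxol 1, or 260.5 to 1499 reads per sgRNA, with the other libraries in between. The level of a gene is given below as the mean over its 10 sgRNAs of log2(normalized count + 1). Each comparison has its own deposited table with its own scaling, so levels are set side by side within a table only. The SD given with a fold change is the spread of the gene level between libraries, pooled over both groups.

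The comparison of Taxol with DMSO asked whether losing one of these enzymes made resistant cells more or less able to grow under the drug. None of the 7 genes passed the test in either direction. Their log2 fold changes ran from -0.11 for SETD6 to 0.24 for SMYD2 with a median of -0.00050, beside a median of 0.031 over all 779 genes, and 3 of 7 were above 0, beside 55.1% of all genes. Non-targeting control sgRNAs, which should cut nothing, had a median of 0.11 in this comparison. With each library centred on them, the median was -0.17 for the 7 genes and -0.14 for all genes. With limma's adjusted p under 0.05 as the threshold, 0 of 7 were lower and 0 of 7 higher, where 0% and 0.128% of all genes were. At an unadjusted limma p under 0.05 the counts were again 0 and 0, beside 1.54% and 4.62% of all genes. Robust rank aggregation (RRA), which asks whether the sgRNAs of a gene crowd toward one end of the ranking, called 0 of 7 depleted and 0 of 7 enriched at an adjusted p under 0.05, beside 0.257% and 0.128% of all genes. Without adjustment it also called 0 and 0, beside 4.75% and 6.55%. In no gene did the 3 Taxol libraries lie wholly below or wholly above the 3 DMSO libraries, which held for 4.49% and 6.29% of all genes.

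Among the SMYD genes, SMYD1 had levels of 8.82, 9.77 and 9.13 in DMSO 1 to 3 and of 9.52, 8.95 and 9.21 in Taxol 1 to 3. The groups overlapped, and the log2 fold change of -0.011 ± 0.40 (SD, n = 3 per group) had a 95% interval of -0.53 to 0.51. SMYD2, a methyltransferase of RB1, was at 9.10, 9.53 and 8.68 in DMSO and at 9.44, 9.07 and 9.51 in Taxol. It had the highest fold change of the 7 genes, 0.24 ± 0.34, with an interval of -0.28 to 0.75 and a limma adjusted p of 0.909. The DMSO 2 library was above every Taxol library, so the order of the libraries did not follow the drug. The study also names SMYD2 as a target of hits in its chemical probe screen, where inhibitors were combined with Taxol. That screen measured cell viability after short inhibitor treatment, unlike the abundance of knockout sgRNAs given here.

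SMYD3, which methylates the kinase MAP3K2 and is known for its part in RAS-driven tumours, was at 9.08, 9.52 and 8.82 in DMSO and at 9.28, 9.44 and 8.70 in Taxol. The fold change was -0.00050 ± 0.37, with an interval of -0.51 to 0.51. SMYD4, whose substrates are less well described, was at 9.09, 9.77 and 9.52 in DMSO and at 9.19, 9.16 and 10.05 in Taxol. Its fold change was 0.0070 ± 0.43 (interval -0.54 to 0.56), and Taxol 3 alone lay above all DMSO libraries.

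The SETD genes gave values of the same size. SETD3 was at 8.29, 8.32 and 8.02 in DMSO, a narrow range, and at 8.48, 7.60 and 8.92 in Taxol, where the libraries lay both below and above that range. The fold change was 0.12 ± 0.49 (interval -0.37 to 0.62), and it was -0.17 without Taxol 3 and 0.49 without Taxol 2. SETD6 was at 9.05, 9.06 and 8.87 in DMSO and at 8.70, 8.93 and 9.02 in Taxol. It had the smallest spread between libraries of the 7 genes, with a fold change of -0.11 ± 0.14 (interval -0.57 to 0.35, limma adjusted p = 0.922). The interval is wider than this SD alone would give because limma draws the spread of a gene toward that of genes of a like level. SETD7 was at 8.91, 9.06 and 8.64 in DMSO and at 8.38, 8.59 and 9.50 in Taxol, so that Taxol 1 and Taxol 2 lay below and Taxol 3 above all DMSO libraries. Its fold change was -0.049 ± 0.45 (interval -0.56 to 0.46), and its exact RRA p for depletion, 0.0999, was the lowest of the 7 genes.

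The intervals of these 7 genes reached at most 0.57 below and 0.75 above 0 on the log2 scale. Each interval spans 0, and with 3 libraries per group the values are compatible with any change inside it, of either sign.

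The sgRNAs of a gene did not move together in this comparison. For each gene, 4 to 6 of its 10 sgRNAs had a fold change above 0, and 37 of all 70 did, beside 52.2% of the 7855 sgRNAs. The spread over the 10 sgRNAs was widest for SETD3, at an SD of 0.97, which is at percentile 95.4 of all genes, and smallest for SMYD1, at 0.46 and percentile 9.63. At an unadjusted limma p under 0.05, 3 of the 70 sgRNAs were lower and 2 higher in Taxol, beside 1.55% and 2.01% of all sgRNAs, and none passed after adjustment over all 7855 (limma adjusted p = 0.967 for each of the 5).

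The lower sgRNAs belonged to 3 different genes. SETD6 sgRNA 5515 had normalized counts of 674, 355 and 763 in DMSO and of 149, 222 and 257 in Taxol (log2 fold change -1.47). SETD7 sgRNA 5530 was at 773, 310 and 432 in DMSO and at 168, 242 and 169 in Taxol (-1.30). For both, all Taxol libraries lay below all DMSO libraries. SMYD4 sgRNA 5901 was at 947, 3677 and 2937 in DMSO and at 438, 597 and 999 in Taxol, with the lowest fold change of the 70 sgRNAs (-1.76), and here Taxol 3 overlapped DMSO 1. SETD6 had an outlying sgRNA on either side, with sgRNA 5515 lowest and sgRNA 5513 highest at 1.48. The rest of its sgRNAs ran from -0.76 to 0.61.

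Of the higher sgRNAs, SMYD2 sgRNA 5889 was the most even between libraries. Its normalized counts were 104, 117 and 102 in DMSO and 258, 233 and 229 in Taxol (log2 fold change 1.15), without overlap. In the table of DMSO and AP the same sgRNA was at 223 and 418 in AP and at 139, 167 and 138 in DMSO, the lowest fold change among the SMYD2 sgRNAs there, at -1.04. SETD3 sgRNA 5495 had the highest fold change of the 70 (2.14), but its counts were 4760 in Taxol 1, 360 in Taxol 2 and 4987 in Taxol 3, against 610, 287 and 570 in DMSO. Taxol 2, the shallowest library, was within the DMSO range.

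Some sgRNAs were far higher in at least 1 Taxol library than in any DMSO library. Taken over the 3 Taxol libraries this was near the rate of the whole sgRNA library, but in Taxol 3 it was 5.71% of the 70. A Taxol library held over 4 times the highest DMSO count for 6 of the 70 sgRNAs, beside 6.93% of all sgRNAs, and the reverse was seen for 0 of 70, beside 4.16%. The 6 were SETD3 sgRNAs 5494 and 5495, SETD6 sgRNA 5513, SMYD2 sgRNAs 5886 and 5890 and SMYD4 sgRNA 5908. Only SETD3 sgRNA 5495 did so in 2 Taxol libraries. SMYD4 sgRNA 5908 was at 11590 in Taxol 1, against 1341 and 1640 in Taxol 2 and Taxol 3 and 1743, 1244 and 2225 in DMSO. SMYD2 sgRNA 5890 was at 5768 in Taxol 1 and at 679 and 473 in the other Taxol libraries, while SMYD2 sgRNA 5886 was at 4305 in Taxol 3 and at 291 and 398 in the others. The 2 SMYD2 sgRNAs thus peaked in different libraries. By library, these high values numbered 3 in Taxol 1, 0 in Taxol 2 and 4 in Taxol 3, beside 4.35%, 0.713% and 2.09% of all sgRNAs.

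The comparison of DMSO with AP asked how these knockouts changed in abundance during growth without the drug. All 7 genes had a fold change above 0, as did 63.3% of all genes, with a range from 0.32 for SMYD3 to 0.69 for SETD7 and a median of 0.46, beside 0.15 over all genes. No gene of the 7 passed the test at an adjusted p under 0.05, by limma (1.41% of all genes were lower and 0.77% higher) or by RRA (2.05% depleted and 0.128% enriched). RRA without adjustment called 0 of 7 depleted, beside 11.8%. At an unadjusted limma p under 0.05, 3 of 7 were higher (SMYD2, SETD6 and SETD7), beside 12.5% of all genes, and 0 of 7 lower, beside 8.73%. All DMSO libraries lay above both AP libraries for SETD3, SETD6 and SETD7, 3 of 7, beside 29.3% of all genes.

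The non-targeting controls moved in the same direction as the 7 genes, and their part in the result was not tested. The 80 non-targeting sgRNAs, which should cut nothing, had a median fold change of 0.43 in this comparison. That was close to the median of 0.51 of the 70 sgRNAs of the 7 genes. It was above the median of 0.13 of all 7775 targeting sgRNAs, the 70 included. With each library centred on its non-targeting controls, the median of all genes went from 0.15 to -0.16. The 7 genes then lay between 0.010 (SMYD3) and 0.38 (SETD7), still above 0, with a median of 0.15.

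SETD7 had the highest value of the 7 genes. Its levels were 8.23 and 9.04 in AP 1 and AP 3 and 9.33, 9.58 and 9.06 in DMSO 1 to 3. The fold change of 0.69 ± 0.39 (SD, n = 3 and 2) had an interval of 0.16 to 1.21, was at percentile 96.8 of all genes and had a limma adjusted p of 0.159. Of its sgRNAs 9 of 10 were above 0, and the exact RRA p for enrichment was 0.016 (adjusted p = 0.348). The AP libraries differed by more than AP 3 did from DMSO, so that the fold change was 0.29 without AP 1 and 1.09 without AP 3.

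SETD6 was at 9.09 and 8.91 in AP and at 9.47, 9.57 and 9.30 in DMSO, a fold change of 0.45 ± 0.14 (interval 0.011 to 0.89, limma adjusted p = 0.225). SETD3 was at 8.35 and 8.30 in AP and at 8.71, 8.84 and 8.45 in DMSO, a fold change of 0.34 ± 0.17 (interval -0.13 to 0.81). In both the AP libraries were close to each other and below every DMSO library.

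SMYD1 was at 8.74 and 9.64 in AP and at 9.23, 10.29 and 9.55 in DMSO, a fold change of 0.50 ± 0.57 that was 0.056 without AP 1, 0.95 without AP 3 and 0.21 without DMSO 2. Its exact RRA p for enrichment was 0.028 (adjusted p = 0.467). With SETD7 that made 2 of 7 at an unadjusted RRA p under 0.05, beside 8.09% of all genes. SMYD2 was at 8.87 and 9.17 in AP and at 9.52, 10.05 and 9.11 in DMSO, a fold change of 0.54 ± 0.40 (interval 0.018 to 1.07, limma adjusted p = 0.223), which was 0.30 without DMSO 2.

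SMYD3 was at 9.21 and 9.34 in AP and at 9.50, 10.03 and 9.25 in DMSO (0.32 ± 0.33, and 0.10 without DMSO 2). SMYD4 was at 9.22 and 9.69 in AP and at 9.51, 10.29 and 9.94 in DMSO (0.46 ± 0.37, interval -0.052 to 0.97, 0.22 without AP 1). In all 4 SMYD genes at least 1 DMSO library lay below the higher AP library. DMSO 2 was the highest DMSO library for all 7 genes, beside 59.9% of all genes, and AP 3 the higher AP library for 5 of 7, beside 54.4%. The median of the 7 genes was 0.27 without DMSO 2, 0.29 without AP 1 and 0.69 without AP 3.

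At the level of single sgRNAs, 56 of 70 were above 0 in DMSO relative to AP, beside 56.8% of all sgRNAs. Each gene had 7 to 9 of its 10 sgRNAs above 0. At an unadjusted limma p under 0.05, 4 of 70 were higher (SETD3 sgRNA 5494, SETD6 sgRNA 5512 and SETD7 sgRNAs 5522 and 5526), beside 3.21% of all sgRNAs, and 0 of 70 lower, beside 3.65%. The highest, SETD6 sgRNA 5512, was at 544 and 753 in AP and at 1147, 5368 and 1121 in DMSO (log2 fold change 1.57, limma adjusted p = 0.727). SETD7 sgRNA 5526 was at 505 and 557 in AP and at 1652, 3097 and 712 in DMSO (1.54, limma adjusted p = 0.727). Both peaked in DMSO 2. A DMSO library held over 4 times the highest AP count for 10 of 70 sgRNAs, beside 7.04% of all, and the reverse was seen for 0 of 70, beside 1.11%. Of these 10, 8 were high in DMSO 2, which had 8 of 70 beside 5.41% of all sgRNAs.

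The comparison of Taxol with AP covered growth under the drug and shares the AP libraries with the comparison of DMSO with AP, so the 2 are not independent. All 7 genes were again above 0, beside 67.7% of all genes, from 0.36 for SMYD3 to 0.82 for SMYD2, with a median of 0.51, beside 0.20 over all genes and 0.68 over the non-targeting sgRNAs. None passed at an adjusted p under 0.05 by limma (0% of all genes were lower and 0.128% higher) or by RRA (4.62% depleted and 1.41% enriched). At an unadjusted limma p under 0.05 SMYD2 was higher, 1 of 7, beside 16.9% of all genes, and 0 of 7 were lower, beside 6.29%. RRA without adjustment called 0 of 7 depleted, beside 13.1%. After centring on the non-targeting controls, the median of all genes went from 0.20 to -0.33, the 7 genes ranged from -0.16 (SMYD3) to 0.30 (SMYD2), and SMYD3, SMYD4, SETD3 and SETD6 were below 0.

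SMYD2 came nearest to the threshold in this comparison. It was at 8.48 and 8.79 in AP and at 9.55, 9.18 and 9.63 in Taxol, so the groups did not overlap. The fold change was 0.82 ± 0.23 (SD, n = 3 and 2), with an interval of 0.33 to 1.31, a percentile of 96.1 among all genes and a limma adjusted p of 0.0876. Of its sgRNAs 9 of 10 were above 0. In DMSO relative to AP the SMYD2 value was 0.54, also with 9 of 10 sgRNAs above 0, and the direct comparison of Taxol with DMSO gave 0.24 with an interval that spans 0.

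SETD6 was the other gene without overlap, 2 of 7 in all beside 32.3% of all genes. It was at 8.70 and 8.52 in AP and at 8.81, 9.04 and 9.14 in Taxol, a fold change of 0.39 ± 0.16 (interval -0.060 to 0.83) with an exact RRA p for enrichment of 0.040 (adjusted p = 0.518). That was 1 of 7 at an unadjusted RRA p under 0.05, beside 8.34% of all genes. SETD7 was at 7.85 and 8.66 in AP and at 8.49, 8.70 and 9.62 in Taxol (0.68 ± 0.59), and the value was 0.28 without AP 1 and 1.09 without AP 3. SMYD1 had a fold change of 0.54 ± 0.43 with all 10 sgRNAs above 0, but it was 0.087 without AP 1 and 0.99 without AP 3. SETD3 (0.51 ± 0.55), SMYD4 (0.51 ± 0.46) and SMYD3 (0.36 ± 0.32) had intervals that span 0. SETD3 was at 0.21 without Taxol 3 and at 0.88 without Taxol 2. Without Taxol 3, SMYD4 was at 0.22 and SMYD3 at 0.58, and SMYD3 was at 0.22 without Taxol 2. The median of the 7 genes was 0.29 without AP 1 and 0.34 without Taxol 3.

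Over all sgRNAs of the 7 genes, 57 of 70 were above 0 in Taxol relative to AP, beside 57.8% of all sgRNAs. At an unadjusted limma p under 0.05, 0 of 70 were lower and 0 higher, beside 3.9% and 2.24% of all sgRNAs. A Taxol library held over 4 times the highest AP count for 14 of 70, beside 13.8% of all sgRNAs, with 5 in Taxol 1, 1 in Taxol 2 and 9 in Taxol 3, and the reverse was seen for 0 of 70, beside 0.56%. SETD3 sgRNA 5495 was the only one of the 14 to do so in 2 libraries.

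One sgRNA against SMYD1, number 5873, was among the most abundant of the whole library from the start. It ranked 1 of 7855 in both AP and all 3 DMSO libraries and 8, 2 and 4 in Taxol 1, 2 and 3. It held 0.370% of the reads in AP 1 (95% Wilson interval 0.366% to 0.375%, which covers counting error only, since PCR reads are not independent molecules) and 0.740% in AP 3. The share was 0.547%, 0.519% and 0.560% in DMSO 1 to 3 and 0.424%, 0.893% and 0.527% in Taxol 1 to 3. Its normalized counts of 24952, 30150 and 25285 in DMSO and 35133, 41315 and 31495 in Taxol gave a fold change of 0.42 (limma adjusted p = 0.967). The high count of this sgRNA was thus present before the drug, and it entered the SMYD1 level as 1 of 10 sgRNAs averaged on the log2 scale. Without the 10 most abundant sgRNAs of the table, the SMYD1 fold change was -0.059 in Taxol relative to DMSO.

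The levels of the 7 genes did not rise and fall together over the 6 libraries of the table of Taxol and DMSO. Pearson's r between pairs of them ran from -0.49 (SMYD3 with SETD3) to 0.80 (SMYD4 with SETD7). SETD6 and SETD7 had an r of 0.78, and SMYD1 and SMYD2 of 0.63. The gene of all 778 others with the most similar profile was SHPRH for SMYD1 (r = 0.99), MGMT for SMYD2 (0.95), HIRA for SMYD3 (0.96), ASF1B for SMYD4 (0.97), IKZF3 for SETD3 (0.94), TYW5 for SETD6 (0.96) and SMARCD2 for SETD7 (0.96). With 6 libraries and 778 genes to choose from, 3 to 12 genes reached an r over 0.9 for each gene, so these are descriptions of 6 points that share libraries and scaling.

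The other SET-domain methyltransferases of the library, 25 measured of 27 listed, include the KMT2, SETD1, NSD, EZH and H3K9 enzymes. In Taxol relative to DMSO, 10 were above 0 and 15 below, where 55.1% of all genes were above 0, and their median was -0.041. At an adjusted p under 0.05, 0 of 25 passed limma, beside 0% of all genes lower and 0.128% higher. RRA also called 0 of 25, beside 0.257% of all genes depleted and 0.128% enriched, so both counts are near those shares. Without adjustment, limma had 0 lower and 0 higher, beside 1.54% and 4.62%, and RRA 1 depleted and 2 enriched, beside 4.75% and 6.55%. The lowest of the 25 was KMT2A, a histone H3 lysine 4 methyltransferase, at -0.45 ± 0.10 (limma adjusted p = 0.839). The highest was its relative KMT2C at 0.40 ± 0.34 (limma adjusted p = 0.839). Their exact RRA p-values were 0.0146 for depletion of KMT2A (adjusted p = 0.820) and 0.0389 for enrichment of KMT2C (adjusted p = 0.680). The study called depleted genes by RRA at p under 0.05. It also reports a significant decrease in viability on KMT2A knockout in a competition assay. The values of the 7 SMYD and SETD genes, -0.11 to 0.24, lay inside the range of the 25, -0.45 to 0.40.

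In DMSO relative to AP the median of the 25 was 0.15, as over all genes. KMT2D, which deposits methyl groups on histone H3 at enhancers, was 1 of 25 higher by limma, beside 0.77% of all genes (1.00 ± 0.25, adjusted p = 0.0271). Its RRA adjusted p was 0.0924. The limma call was lost at least after centring on the non-targeting sgRNAs and without DMSO 1, where no gene was called higher. Fits that keep only 1 AP library are not counted here, so the call is not shown to hold without either of them. KMT2B was lowest at -0.51 ± 0.20. Without adjustment, limma had 3 of 25 higher and 1 lower at a p under 0.05, beside 12.5% and 8.73% of all genes. In Taxol relative to AP the median was 0.24. There SETD2, which places the trimethyl mark on lysine 36 of histone H3, was 1 of 25 depleted by RRA (adjusted p = 0.0162), a count near the 4.62% of all genes, with a fold change of -0.56 ± 0.24 and a limma adjusted p of 0.168, and KMT2D was highest at 0.88 ± 0.23 (limma adjusted p = 0.0773).

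Known substrates and partners of the 7 enzymes were measured for 14 of 21 listed genes. In no comparison did any of the 14 pass limma or RRA at an adjusted p under 0.05. Of all genes, at most 1.41% passed limma and 4.62% RRA in a single direction of a comparison, so 0 of 14 is near that share. In Taxol relative to DMSO, 0 of 14 were lower and 2 higher at an unadjusted limma p under 0.05, beside 1.54% and 4.62% of all genes. Unadjusted RRA called 0 of 14 depleted and 3 enriched, beside 4.75% and 6.55%. The median of the 14 was 0.18 there. TBL1XR1, a corepressor subunit, was highest at 0.63 ± 0.35 (limma adjusted p = 0.640), and DNMT1, the maintenance DNA methyltransferase, lowest at -0.25 ± 0.28. In DMSO relative to AP the median was -0.069, from HDAC3 at -0.83 ± 0.27 (limma adjusted p = 0.0645) to the tumour suppressor RB1, a SMYD2 substrate, at 0.76 ± 0.24 (limma adjusted p = 0.0702). The same genes were the extremes in Taxol relative to AP, HDAC3 at -0.61 ± 0.067 and RB1 at 0.97 ± 0.48 (limma adjusted p = 0.101), with a median of 0.34.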

How the data were processed

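EPIKOL sgRNAs were counted by the authors from amplicons of genomic DNA of 8 libraries (2 AP, 3 DMSO and 3 Taxol, groups per the labels). The deposited sgRNA tables hold counts already normalized by the authors with MAGeCK 0.5.8, per the submitters' processing notes, in a table of its own for each comparison, where a cell joins the values of a group. Read trimming and mapping options are not given in the sources used here. The values in a cell were assumed to stand in the order of the replicate numbers. AP cells hold 3 values, and the second was not used, which left out 2 value columns in all. Other deposited columns and the gene tables hold the authors' own fold changes, scores and p-values and were not used. A row that named no gene, with 0 reads, was dropped from each table (1 row each). Dividing by the smallest step between low values gave back reads, whole within 0.1 read for 99.9% to 100% of values below 10000 reads, and so the depths. No build and no sgRNA sequences were given in the files used.

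Gene levels (means over sgRNAs of log2(normalized count + 1), a scale that understates changes of low counts) were compared within each table with limma 3.58.1 in R 4.3.3 (lmFit, eBayes with trend, two-sided, no covariate, Benjamini-Hochberg over 779 genes with at least 3 sgRNAs). RRA, the gene test of the study, was run on 25% of ranks of sgRNAs ordered by limma's moderated statistic, one-sided with exact p-values. It sets sgRNAs against sgRNAs, and the spread between libraries enters only through the ranking. The RRA p-values were checked on simulated uniform ranks, and both methods were run on shifts added to independent noise. That noise lacks the jumps of single libraries and the deviations shared within a library, so it does not show how the methods act on these data. The genes, lists and rules were chosen with earlier results of these data known. An entry of the list of substrates and partners is not reported here and was left out of its counts. Besides the 7 genes, the report names the extremes and the called genes of each list, for each gene its closest profile, and sgRNAs that were the extremes of their gene or had an unadjusted p under 0.05; those over 4 times the other group and SMYD1 sgRNA 5873 were chosen after their values were seen. Same-numbered Taxol and DMSO libraries deviated together from their group means (r = 0.194, 0.153 and 0.217 for replicates 1 to 3, each the highest for its library). The numbers may therefore pair the samples. Such a pairing is not stated in the labels and rests on the assumed order of the values. It was not used in the main fits, so the intervals and p-values in the results treat these libraries as unpaired. The replicate block, among the alternatives, uses the pairing and called none of the 7 genes in Taxol relative to DMSO. Alternatives were centring on non-targeting sgRNAs, median-of-ratios size factors, a pseudocount of 10, leaving out sgRNAs under a mean of 50, medians over sgRNAs, a replicate block, other RRA settings and leaving out each library. Added after seeing the data were limma-voom on summed reads and leaving out the 10 most abundant sgRNAs.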

Additional observations from a re-analysis of the deposited data

How the results depend on the processing

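No alternative brought one of the 7 genes past the threshold of limma or RRA in Taxol relative to DMSO or in DMSO relative to AP. For Taxol relative to DMSO the direction of values near 0 changed: centred on non-targeting sgRNAs SMYD4 was at -0.16 and SETD3 at -0.048, with medians over sgRNAs SMYD2 was at -0.29, SMYD3 at 0.099 and SETD3 at -0.40, and with limma-voom on summed reads SMYD1 was at 0.34, SMYD3 at 0.035 and SETD7 at 0.067. Leaving out 1 library gave -0.22 to 0.25 for SMYD1, 0.024 to 0.45 for SMYD2, -0.16 to 0.22 for SMYD3, -0.28 to 0.16 for SMYD4, -0.17 to 0.49 for SETD3, -0.18 to -0.017 for SETD6 and -0.39 to 0.17 for SETD7. For Taxol relative to AP, centring on non-targeting sgRNAs gave -0.16 for SMYD3, -0.013 for SMYD4, -0.018 for SETD3 and -0.14 for SETD6, and a median of the 7 genes of -0.013, beside 0.85 with limma-voom and 0.29 to 0.75 without 1 library. Libraries that share a number with AP had r from -0.053 to 0.043. With 2 AP libraries the deviations from their mean are mirror images, so r cannot decide whether the numbers pair the samples. A replicate block over these numbers called 3 of the 7 genes in Taxol relative to AP. They were SMYD2 at 0.96 (limma adjusted p = 0.0317), SETD3 at 0.88 (0.0227) and SETD7 at 0.80 (0.0498). In that fit Taxol 2, with no AP partner, also drops out of the fold change. These folds equal those without Taxol 2 and no block, where none of the 3 passed. Over the settings of this comparison these were the only calls of the 7 genes.

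Counts over all genes moved more. In Taxol relative to DMSO limma called 1 gene (USP22), 3 with the replicate block (USP22, CHD2 and ABCB1, named after their values were seen), 0 with limma-voom and 0 to 4 without 1 library, while RRA called 3, 6 after centring on non-targeting sgRNAs and 1 to 4 without 1 library. In DMSO relative to AP limma called 17 (11 lower and 6 higher), 16 lower and 0 higher after centring, 6 with medians, 67 with the block (which also takes DMSO 2 out of the fold change, a step that alone gave 33), 1 with limma-voom and 0 to 33 without 1 library, and RRA called 17, or 27 when ranked by fold change. In Taxol relative to AP limma called 1, after centring 154 (150 lower and 4 higher), 5 with medians, 64 with the block (also without Taxol 2, a step that alone gave 9), 0 with limma-voom, 2 without the 10 most abundant sgRNAs and 0 to 9 without 1 library, and RRA called 47, or 3 to 38 without 1 library. The cause of these shifts was not tested. The count-model test planned on summed reads was not run, and limma-voom on the same reads took its place. Depth limits single sgRNAs most in Taxol 2, at 260.5 reads per sgRNA.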
